A study of Mus musculus with 9 samples.

Results

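The mRNAs described here encode 37 enzymes of central carbon metabolism, 17 of glycolysis (with both lactate dehydrogenase subunits), 5 that bring pyruvate into the citric acid cycle and 15 of the cycle itself. They were listed by pathway and gene symbol, a rule that uses no measured value, though the list was chosen with earlier results of these data known. All 37 were among the 15267 protein-coding genes that passed the filter on low counts. The study asked which cytoplasmic mRNAs are bound by CELF2, an RNA-binding protein of the CELF family, in mice that carry a knock-in (KI) missense allele of Celf2, using RNA immunoprecipitation followed by sequencing (RIP-seq). The 9 libraries fell into CELF2-KI RIP (10 µg of rabbit anti-CELF2 antibody), IgG RIP (10 µg of normal rabbit IgG, the control for unspecific capture) and input (cytoplasmic RNA set aside before the precipitation), with 3 biological replicates each and a 3-hour incubation with antibody. Every library came from the cytoplasmic fraction of whole cortex at P0 (the day of birth), from mice heterozygous for CELF2 p.R493H, so that the controls carried the same allele and no wild-type library was compared. The labels list neurons, radial glia, astrocytes, oligodendrocyte precursors (OPCs), microglia and endothelium as the cells of the lysate, so that each level is a mixture over them, and the variant allele itself cannot be read from gene counts.

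Glycolysis splits glucose to pyruvate in the cytosol and yields ATP and NADH, and lactate dehydrogenase regenerates NAD+ by reducing pyruvate to lactate. In mitochondria, the pyruvate dehydrogenase complex turns pyruvate into acetyl-CoA, which the citric acid cycle oxidises to feed the respiratory chain, while pyruvate carboxylase refills the cycle with oxaloacetate. Glucose is the main fuel of the brain, and all of these enzymes, the mitochondrial ones included, are translated from nuclear-encoded mRNAs in the cytoplasm. CELF proteins are known for binding GU-rich stretches of RNA and for acting on splicing, mRNA stability and translation.

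The deposited estimated counts summed to 15919600 to 20052716 per CELF2-KI RIP library, 17365561 to 28773130 per IgG RIP library and 69125700 to 105116427 per input library. One transcript row with no match in the gene table held 10.8% to 34.9% of the counts in the IgG RIP libraries, against 0.809% to 1.76% in CELF2-KI RIP and 0.405% to 0.797% in input, and protein-coding counts in the IgG RIP libraries came to 9347252 to 14965224. The 37 enzymes took 0.297% to 0.372% of the protein-coding counts in CELF2-KI RIP, 0.424% to 0.487% in IgG RIP and 0.532% to 0.543% in input. Cortical identity was checked on 7 excitatory neuron markers, all of which passed the filter and summed to 971 to 1135 CPM (counts per 1000000 protein-coding counts, with library sizes scaled by trimmed mean of M values, TMM) in input, while globin and other erythroid markers summed to 877 to 1135 CPM there. Of the microglial markers, P2ry12 did not pass the filter. All levels below are in this TMM-scaled CPM. Each difference is the log2 ratio of 2 conditions, named as the first over the second and fitted by edgeR's quasi-likelihood test. It is given ± a standard error (SE) derived from that test. The SE rests on a spread estimated over all 9 libraries and moderated across genes, not on the spread within the 3 libraries of a condition. The false discovery rate (FDR) was taken over all 15267 genes.

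Few of these mRNAs were recovered above the controls with CELF2, and a larger share of the list was recovered below them. A gene was called when its FDR was under 0.01 and it differed by 2-fold or more. Against IgG RIP, 2 of the 37 were higher in CELF2-KI RIP (Ldha and Pgam1) where 13.4% of all tested genes were, and 11 (29.7%) were lower where 13.6% of all tested genes were. Against input, 3 were higher (Hk2, Pfkp and Ldha, background 14.6%) and 13 (35.1%) were lower (background 15.5%). Only Ldha was higher than both controls, with a background of 7.58%, whereas 11 (29.7%) were lower than both, with a background of 9.54%. These 11 were Gpi1, Aldoa, Aldoc, Tpi1 and Gapdh of glycolysis and Idh2, Idh3b, Idh3g, Suclg1, Fh1 and Mdh2 of the citric acid cycle, and none of the 5 pyruvate entry genes was among them. Tested against the 2-fold threshold itself (edgeR's glmTreat), 4 of the 11, Gpi1, Tpi1, Gapdh and Idh3b, kept both calls, and Pgam1 lost its call over IgG RIP. The median log2 ratio over the 37 was -0.56 over IgG RIP and -0.62 over input, beside -0.06 and 0.19 over all genes tested. By FDR alone, with no fold threshold, 3 were higher (background 22.9%) and 15 lower (background 19.2%) than IgG RIP, and 5 were higher (background 26.8%) and 17 lower (background 20.1%) than input. In bulk RNA of this kind, fewer cells of a type and less RNA per cell cannot be told apart, and a lower CPM in one condition is a lower share of that library, not an absolute amount.

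**Figure D1:**
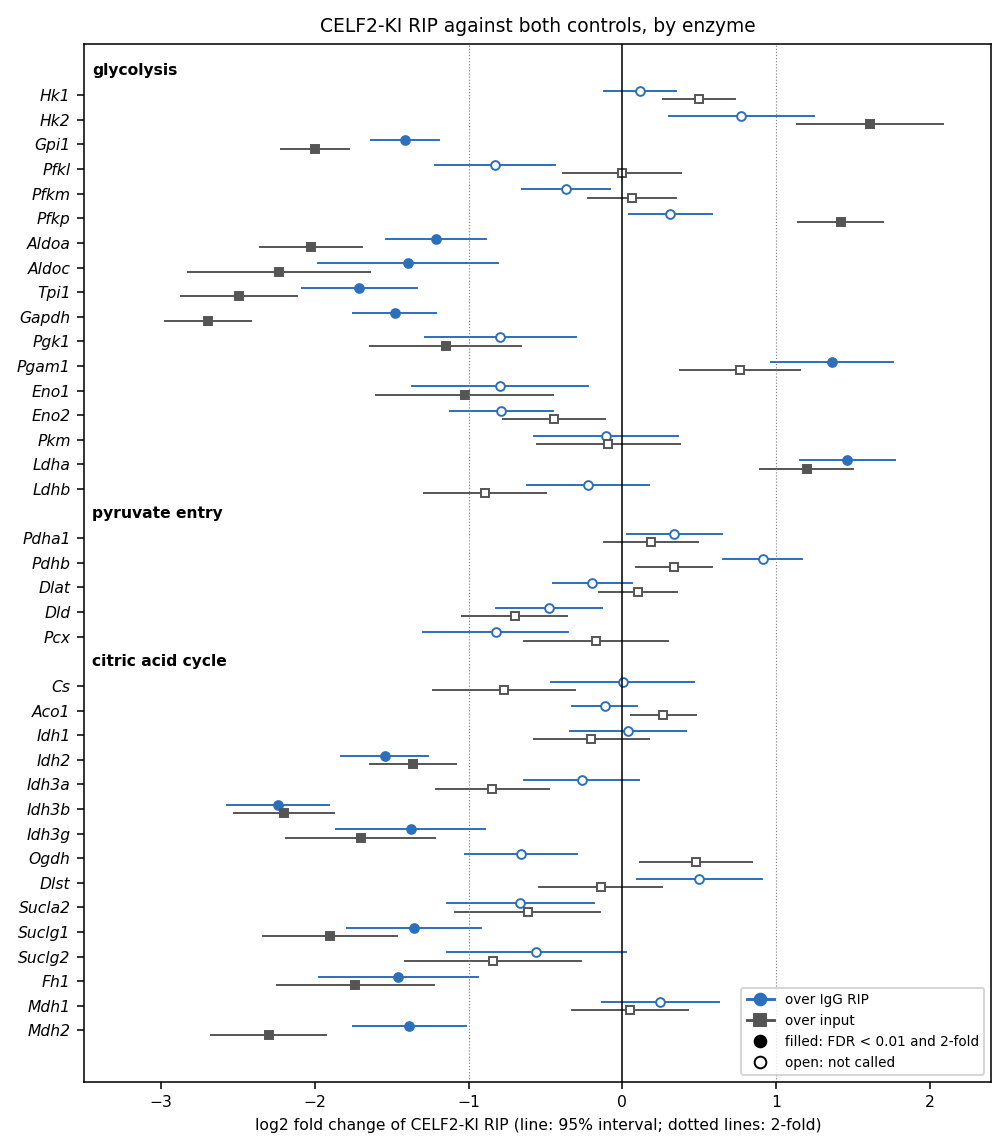
Log2 ratio of CELF2-KI RIP to IgG RIP (blue circles) and to input (grey squares) for the 37 enzymes. Lines are 95% intervals from the fit of all 9 libraries, 3 per condition, and filled symbols mark calls at FDR under 0.01 and 2-fold. Ldha at 1.46 and 1.20 has both symbols filled on the right, and the 11 enzymes with both filled on the left lie between -2.24 and -1.21 over IgG RIP.

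Lactate dehydrogenase A showed the highest recovery of the list over IgG RIP. Ldha (chr7:46842274-46855627 in mouse genome build GRCm38) encodes the subunit that favours conversion of pyruvate to lactate, and stood at 408, 453 and 375 CPM in the CELF2-KI RIP libraries, 123, 148 and 177 CPM in the IgG RIP libraries and 179, 184 and 175 CPM in the input libraries. Each of the 3 CELF2-KI RIP libraries exceeded all 6 controls, and the IgG RIP and input libraries overlapped. The difference was 2.76-fold over IgG RIP (1.46 ± 0.14, FDR = 1.91e-05) and 2.30-fold over input (1.20 ± 0.14, FDR = 4.58e-05). The call over IgG RIP was kept under all 20 alternative settings, whereas the call over input was lost under 5, with total-count, upper-quartile or coding-plus-noncoding TMM scaling, a fit of only the conditions compared or a test against the 2-fold threshold itself, where its log2 ratio stayed between 0.73 and 1.20. Ldhb, whose subunit favours the reverse reaction, was at 75.2, 51.05 and 56.5 CPM in the CELF2-KI RIP libraries, 57.9, 68.1 and 87.4 CPM in the IgG RIP libraries and 117, 110.4 and 112 CPM in the input libraries. Its CELF2-KI RIP libraries overlapped those of IgG RIP and lay below those of input, and neither contrast was called (log2 ratio -0.22 ± 0.18, FDR = 0.316 over IgG RIP and -0.89 ± 0.18, FDR = 0.00155 over input). Within each library, the ratio of Ldha to Ldhb counts was 5.43, 8.86 and 6.64 in the CELF2-KI RIP libraries, 2.13, 2.17 and 2.02 in the IgG RIP libraries and 1.53, 1.67 and 1.57 in the input libraries, with no overlap between CELF2-KI RIP and either control.

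Phosphoglycerate mutase 1 was the other glycolytic mRNA above IgG RIP. Pgam1 (chr19:41911871-41918665), which moves the phosphate of 3-phosphoglycerate ahead of enolase, was at 289.9, 289.6 and 269 CPM in the CELF2-KI RIP libraries, 83.03, 100.1 and 146 CPM in the IgG RIP libraries and 173, 163 and 164 CPM in the input libraries. The CELF2-KI RIP libraries were above all 6 controls and varied little among themselves, and the third IgG RIP library was the highest of that condition. The change was 2.58-fold over IgG RIP (1.37 ± 0.18, FDR = 0.000121) and 1.70-fold over input (0.77 ± 0.18, FDR = 0.00354), the latter past the FDR threshold but not the fold threshold. Counted by FDR alone, 2 of the 37, Ldha and Pgam1, were higher than both controls where 17.4% of all tested genes were. Every CELF2-KI RIP library exceeded all 6 controls for 4 enzymes (Hk2, Pgam1, Ldha and Pdhb, 10.8%), where 25.2% of all tested genes did so, and lay below all 6 for 14 (37.8%), where 19.9% did so.

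At the entry of glycolysis, neither hexokinase, the enzyme that phosphorylates glucose, was called against IgG RIP, and Hk2 was called higher than input. Hk1, the widely expressed brain form, was at 375, 407 and 377 CPM in the CELF2-KI RIP libraries, 332, 348 and 388 CPM in the IgG RIP libraries and 272, 252 and 296 CPM in the input libraries. The first and last CELF2-KI RIP libraries lay within the range of IgG RIP, and the log2 ratio was 0.12 ± 0.10, FDR = 0.372 over IgG RIP and 0.50 ± 0.10, FDR = 0.00208 over input, under 2-fold in both. Hk2, the insulin-responsive form of muscle and proliferating cells, was at 33.4, 49.8 and 30.1 CPM in the CELF2-KI RIP libraries, 27.3, 20.3 and 18.6 CPM in the IgG RIP libraries and 12.5, 12.6 and 11.98 CPM in the input libraries. Its lowest CELF2-KI RIP library was close above the highest IgG RIP library, and the change over input was 3.06-fold (1.61 ± 0.21, FDR = 0.000111) while that over IgG RIP was not called (0.78 ± 0.21, FDR = 0.0103). IgG RIP also lay above input for Hk2 (0.84 ± 0.21, FDR = 0.0108, not called), and the call over input ended when transcripts were limited to curated or version-matched accessions or tested against 2-fold itself.

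Glucose-6-phosphate isomerase, which makes fructose-6-phosphate, was among the mRNAs depleted from CELF2-KI RIP. Gpi1 (chr7:34201327-34230336) was at 45.4, 43.97 and 40.9 CPM in the CELF2-KI RIP libraries, 118, 120.0 and 109.9 CPM in the IgG RIP libraries and 174, 167 and 179.5 CPM in the input libraries. The 3 conditions formed separate steps with little spread, and CELF2-KI RIP was 2.67-fold lower than IgG RIP (-1.41 ± 0.099, FDR = 7.74e-06) and 3.99-fold lower than input (-1.997 ± 0.10, FDR = 4.31e-07). The next enzyme, phosphofructokinase, commits sugar to glycolysis and exists as muscle, liver and platelet forms. Pfkm, the muscle form, was at 177, 123 and 150.5 CPM in the CELF2-KI RIP libraries, 201, 191 and 189.9 CPM in the IgG RIP libraries and 149.6, 139 and 143 CPM in the input libraries. Pfkl, the liver form, was at 23.9, 18.9 and 29.1 CPM in the CELF2-KI RIP libraries, 45.7, 43.4 and 38.4 CPM in the IgG RIP libraries and 24.8, 26.00 and 21.1 CPM in the input libraries. The CELF2-KI RIP libraries of both lay below IgG RIP and overlapped input, and neither was called against either control, with Pfkl at -0.83 ± 0.17, FDR = 0.00238 over IgG RIP and Pfkm at -0.37 ± 0.13, FDR = 0.0322. Pfkp, the platelet form, was at 752, 927 and 869.9 CPM in the CELF2-KI RIP libraries, 752, 660.4 and 639.9 CPM in the IgG RIP libraries and 325, 345 and 283 CPM in the input libraries. Both precipitates lay well above input and overlapped each other at the first CELF2-KI RIP and the first IgG RIP library, and Pfkp was called higher than input (1.42 ± 0.12, FDR = 1.04e-05) in CELF2-KI RIP and also in IgG RIP (1.11 ± 0.12, FDR = 0.000223), while CELF2-KI RIP was not called against IgG RIP (0.31 ± 0.12, FDR = 0.0495), and the call over input ended with total-count scaling in CELF2-KI RIP. Predicted noncoding transcript rows of the gene (RefSeq XR accessions) held 97.6% to 98.3% of the Pfkp counts in CELF2-KI RIP, 82.5% to 93.7% in IgG RIP and 95.7% to 96.5% in input, so that most of this signal was not assigned to a protein-coding transcript.

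The enzymes that make and interconvert triose phosphates were lower with CELF2 than with either control. Aldolase cleaves fructose-1,6-bisphosphate, and its general form Aldoa (chr7:126795234-126800994) was at 67.2, 50.7 and 48.3 CPM in the CELF2-KI RIP libraries, 113, 137 and 134 CPM in the IgG RIP libraries and 226, 208 and 243 CPM in the input libraries. Aldoc (chr11:78323073-78327781), the form enriched in brain and astrocytes, was at 33.03, 15.6 and 18.3 CPM in the CELF2-KI RIP libraries, 55.8, 51.3 and 68.7 CPM in the IgG RIP libraries and 123, 88.8 and 103 CPM in the input libraries. In both, every CELF2-KI RIP library lay below every IgG RIP library and these below every input library. Aldoa was lower than IgG RIP (-1.21 ± 0.15, FDR = 7.68e-05) and than input (-2.02 ± 0.15, FDR = 4.1e-06), and Aldoc was lower than IgG RIP (-1.39 ± 0.26, FDR = 0.00121) and than input (-2.23 ± 0.27, FDR = 5.91e-05). Triosephosphate isomerase 1, encoded by Tpi1 (chr6:124810586-124814158), interconverts the aldolase products and was the lowest glycolytic mRNA over IgG RIP, at 24.1, 17.4 and 19.8 CPM in the CELF2-KI RIP libraries, 53.2, 69.97 and 77.5 CPM in the IgG RIP libraries and 115, 117 and 113 CPM in the input libraries. Its conditions did not overlap, and it was 3.27-fold lower than IgG RIP (-1.71 ± 0.17, FDR = 2.32e-05) and 5.62-fold lower than input (-2.49 ± 0.17, FDR = 2.65e-06).

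Gapdh (chr6:125161852-125166467), which oxidises glyceraldehyde-3-phosphate and is often used as a reference transcript, had the largest drop from input of the list. It was at 120.3, 109 and 105 CPM in the CELF2-KI RIP libraries, 266, 321 and 344 CPM in the IgG RIP libraries and 708, 678 and 775 CPM in the input libraries. The conditions were again in 3 separate steps, and CELF2-KI RIP was 2.79-fold lower than IgG RIP (-1.48 ± 0.12, FDR = 1.15e-05) and 6.48-fold lower than input (-2.70 ± 0.13, FDR = 3.59e-07). Gapdh was also lower in IgG RIP than in input (-1.21 ± 0.12, FDR = 0.000156), the only one of the 37 called lower in that contrast, where the background was 5%.

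The remaining steps of lower glycolysis differed less from the controls. Pgk1, the first ATP-forming kinase of the pathway, had a log2 ratio of -0.79 ± 0.22, FDR = 0.0113 over IgG RIP and -1.15 ± 0.22, FDR = 0.00124 over input, and was called only in the latter, where the call was lost without the second CELF2-KI RIP library (lowest log2 ratio over the fits that left out a library -1.49 and highest -0.96). Eno1, the general enolase, was at 197, 93.1 and 114 CPM in the CELF2-KI RIP libraries, 183, 224 and 295 CPM in the IgG RIP libraries and 284, 271 and 268 CPM in the input libraries, and the first CELF2-KI RIP library was well above the other 2 and within the range of IgG RIP. It was called lower than input (-1.03 ± 0.26, FDR = 0.00606) but not than IgG RIP (-0.80 ± 0.26, FDR = 0.0237), and the call over input was lost in 5 of the 9 fits that left out a library (without the second or the third CELF2-KI RIP library or any input library). Eno2, the neuronal enolase, was at 19.4, 21.9 and 19.01 CPM in the CELF2-KI RIP libraries, 40.05, 29.7 and 34.3 CPM in the IgG RIP libraries and 28.3, 24.7 and 29.05 CPM in the input libraries. Its CELF2-KI RIP libraries lay below all controls by less than 2-fold (-0.79 ± 0.15, FDR = 0.00132 over IgG RIP and -0.44 ± 0.15, FDR = 0.0251 over input). Pkm, pyruvate kinase, which forms pyruvate and ATP, was at 210.3, 111 and 133 CPM in the CELF2-KI RIP libraries, 136, 173 and 181 CPM in the IgG RIP libraries and 165, 163 and 157 CPM in the input libraries. Here the first CELF2-KI RIP library was above all controls and the other 2 below them, and neither contrast was called (log2 ratio -0.11 ± 0.21, FDR = 0.697 over IgG RIP and -0.092 ± 0.21, FDR = 0.725 over input). Summing only curated Pkm transcripts gave -1.22 over input and only version-matched ones gave 0.996, so no direction is given for Pkm over input.

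**Figure D2:**
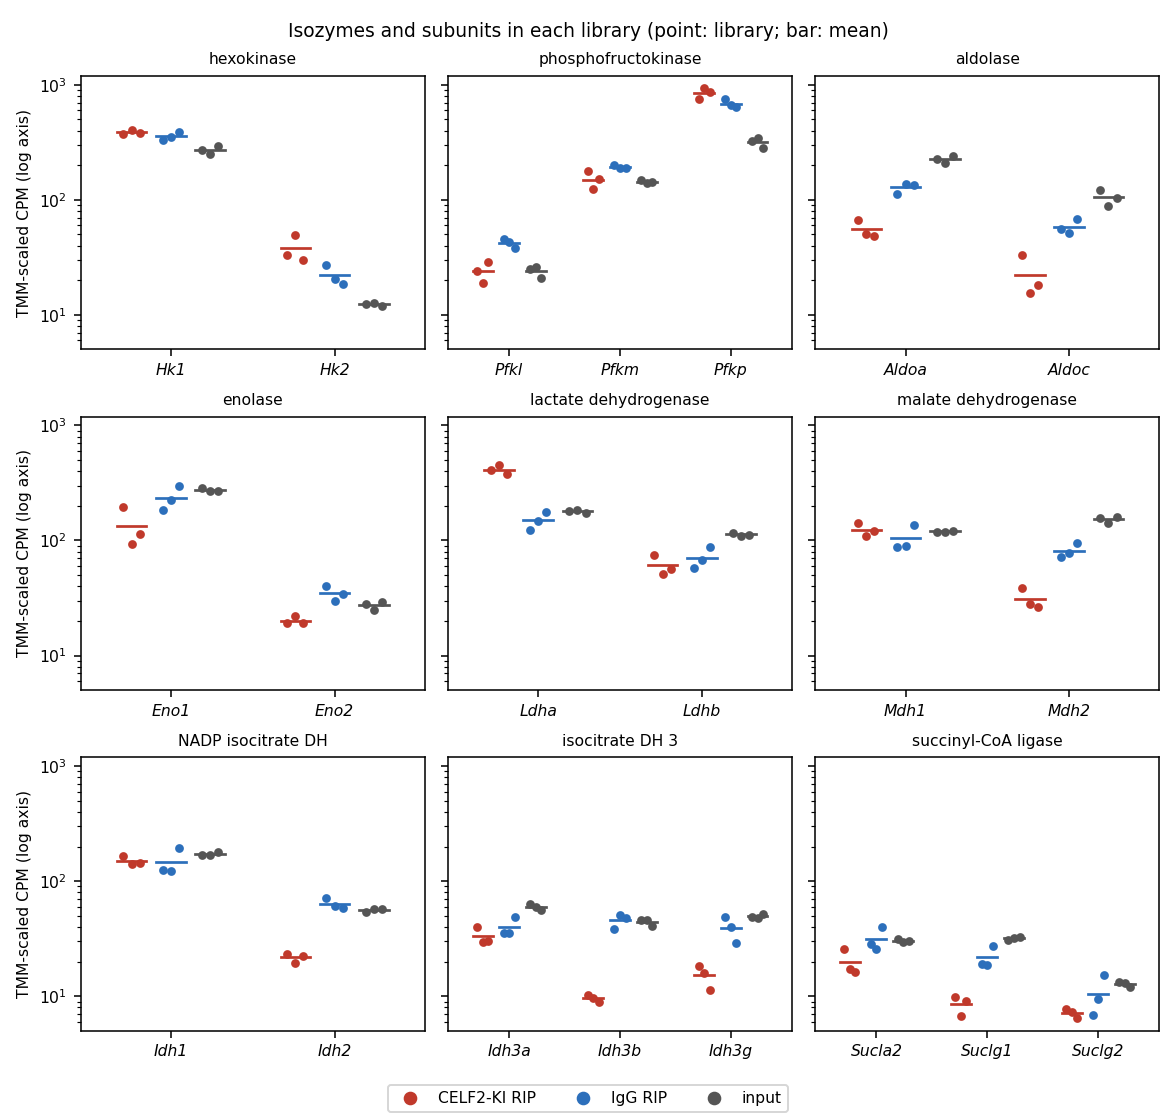
TMM-scaled CPM (log axis) of isozymes and subunits in each library, with points for the 3 libraries of CELF2-KI RIP (red), IgG RIP (blue) and input (grey) and a bar for their mean. The red points of Mdh1, Idh1 and Idh3a overlap the blue ones and those of Ldha lie above them, while their partners Mdh2, Idh2 and Idh3b lie below all controls.

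These changes gave the glycolytic mRNAs a different make-up in each condition, while their TMM-scaled sum varied little with Pfkp included. Mean Pfkp rose from 318 CPM in input to 684 CPM with IgG and 850 CPM with CELF2. Without it, the remaining glycolytic mRNAs together were lower with CELF2 than in input. Before TMM scaling, the whole enzyme list also took a smaller share of protein-coding counts with CELF2 than in input. Summed over the 17 genes, glycolysis came to 2713 to 2947 CPM in CELF2-KI RIP, 2686 to 3062 CPM in IgG RIP and 3099 to 3229.5 CPM in input. Gapdh took 21.9% to 24.1% of this sum in input, 9.92% to 11.4% in IgG RIP and 3.84% to 4.08% in CELF2-KI RIP. Ldha took 5.43% to 5.93% in input, 4.59% to 5.78% in IgG RIP and 13.8% to 15.98% in CELF2-KI RIP, and Pgam1 took 9.84% to 10.2% in CELF2-KI RIP against 3.09% to 4.76% in IgG RIP. Pfkp, mostly from its predicted noncoding rows, took 8.79% to 11.1% in input but 20.9% to 28.01% in IgG RIP and 25.5% to 32.7% in CELF2-KI RIP, so that its gain over input was shared by both precipitates.

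**Figure D3:**
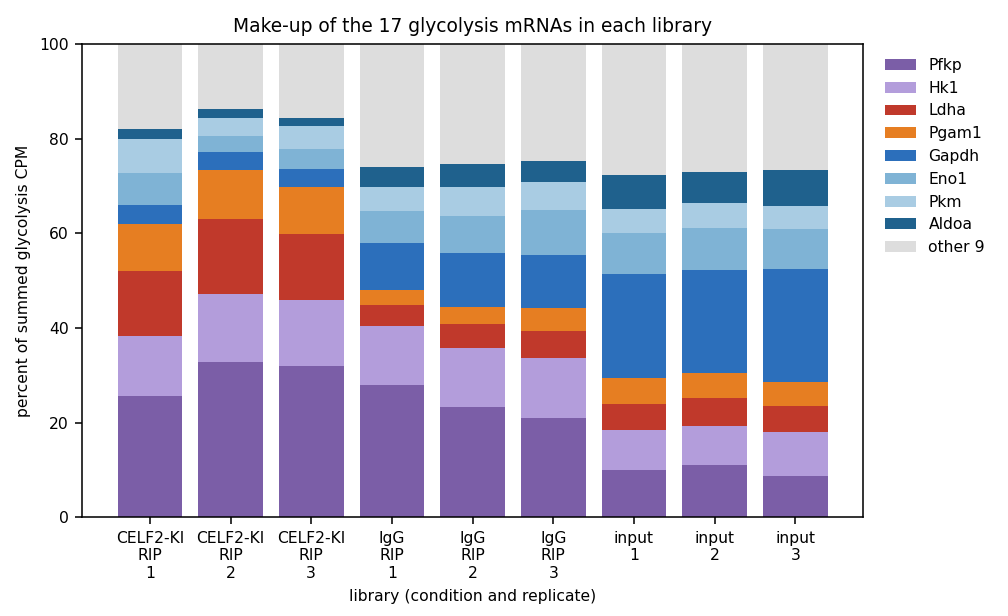
Share of the summed glycolysis CPM (percent, stacked bars) taken by 8 genes and by the other 9 together in each of the 9 libraries. Gapdh (mid blue) narrows from 21.9% to 24.1% in input to 3.84% to 4.08% in CELF2-KI RIP, where Ldha (red) takes 13.8% to 15.98%.

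None of the 5 genes of pyruvate entry was called against either control. Pdhb (chr14:8165991-8173303), the beta subunit of the pyruvate dehydrogenase E1 enzyme, was the highest of them over IgG RIP, at 73.2, 68.2 and 65.2 CPM in the CELF2-KI RIP libraries, 34.5, 35.5 and 39.7 CPM in the IgG RIP libraries and 52.8, 52.3 and 58.6 CPM in the input libraries. The CELF2-KI RIP libraries were higher than every control, by 1.88-fold over IgG RIP (0.91 ± 0.11, FDR = 9.43e-05) and 1.26-fold over input (0.34 ± 0.11, FDR = 0.0245). Pdha1, its alpha partner, had 0.34 ± 0.14, FDR = 0.0601 over IgG RIP, and the 95% interval was 0.031 to 0.65. Pcx, pyruvate carboxylase, was the lowest of the group over IgG RIP, at 109.7, 55.1 and 79.8 CPM in the CELF2-KI RIP libraries, 154, 130.1 and 149 CPM in the IgG RIP libraries and 101, 82.1 and 92.3 CPM in the input libraries. The CELF2-KI RIP libraries other than the first were below all controls and the first was above all input libraries, and the log2 ratio was -0.82 ± 0.21, FDR = 0.00747 over IgG RIP and -0.17 ± 0.21, FDR = 0.509 over input. Pcx counts were split unevenly between transcript rows, with the predicted row holding 5.85% to 99.96% of them across the IgG RIP libraries. Dlat and Dld, the E2 and E3 enzymes of the complex, had log2 ratios of -0.20 and -0.48 over IgG RIP.

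In the citric acid cycle no mRNA was called higher than a control in CELF2-KI RIP and 6 of 15 (40%) were lower than both, with a background of 9.54%. Cs, citrate synthase, which opens the cycle, was at 165, 90.5 and 139 CPM in the CELF2-KI RIP libraries, 112, 121 and 161 CPM in the IgG RIP libraries and 225, 210.4 and 237 CPM in the input libraries. Its CELF2-KI RIP libraries spanned those of IgG RIP and lay below those of input, with a log2 ratio of 0.0017 ± 0.21, FDR = 0.996 over IgG RIP (95% interval -0.46 to 0.47) and -0.77 ± 0.21, FDR = 0.00897 over input. The 3 members of the cycle list whose enzymes work in the cytosol, Aco1, Idh1 and Mdh1, had log2 ratios of -0.11 to 0.25 over IgG RIP, whereas the 12 mitochondrial ones ranged from -2.24 to 0.50 with a median of -1.01 (6 of 12 lower than both controls, background 9.54%). With 3 cytosolic members, the difference between the compartments was not tested. For other enzymes with cytosolic and mitochondrial forms, from the list of linked enzymes, the log2 ratios over IgG RIP were -0.020 for Got1 and 0.062 for Got2, the aspartate aminotransferases, and 0.016 for Me1, 0.39 for Me2 and -0.92 for Me3, the malic enzymes.

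Of the NADP-dependent isocitrate dehydrogenases, Idh2 was lower than both controls and Idh1 was not called. Idh1, the cytosolic NADP-dependent enzyme, was at 164, 141 and 145 CPM in the CELF2-KI RIP libraries, 125, 122 and 193 CPM in the IgG RIP libraries and 169, 169 and 181 CPM in the input libraries. Idh2 (chr7:80094845-80118608), its mitochondrial counterpart, was at 23.2, 19.6 and 22.4 CPM in the CELF2-KI RIP libraries, 70.8, 61.3 and 58.3 CPM in the IgG RIP libraries and 53.4, 57.1 and 56.98 CPM in the input libraries. CELF2-KI RIP and IgG RIP overlapped for Idh1, which was not called (log2 ratio 0.037 ± 0.17, FDR = 0.869 over IgG RIP and -0.20 ± 0.17, FDR = 0.318 over input), while the CELF2-KI RIP libraries of Idh2 were below all controls (log2 ratio -1.55 ± 0.13, FDR = 1.14e-05 over IgG RIP and -1.36 ± 0.13, FDR = 1.45e-05 over input). The ratio of Idh1 to Idh2 counts was 7.07, 7.22 and 6.48 in the CELF2-KI RIP libraries, 1.76, 1.99 and 3.30 in the IgG RIP libraries and 3.17, 2.95 and 3.17 in the input libraries, again without overlap between CELF2-KI RIP and the controls.

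Isocitrate dehydrogenase 3, the NAD-dependent enzyme of the cycle, is built from a catalytic alpha subunit and regulatory beta and gamma subunits. Idh3a, the alpha subunit, was at 39.8, 29.9 and 30.3 CPM in the CELF2-KI RIP libraries, 35.5, 35.7 and 48.95 CPM in the IgG RIP libraries and 63.2, 59.8 and 56.7 CPM in the input libraries. Idh3b (chr2:130279309-130284451), the beta subunit, was the lowest of the 37 over IgG RIP, at 10.3, 9.62 and 8.92 CPM in the CELF2-KI RIP libraries, 38.6, 50.6 and 47.4 CPM in the IgG RIP libraries and 45.9, 46.2 and 40.7 CPM in the input libraries. Idh3g (chrX:73778963-73786897), the gamma subunit, was at 18.3, 15.8 and 11.4 CPM in the CELF2-KI RIP libraries, 49.1, 40.2 and 29.03 CPM in the IgG RIP libraries and 48.6, 47.6 and 51.99 CPM in the input libraries. Idh3a overlapped IgG RIP (-0.27 ± 0.17, FDR = 0.205) and lay below every input library (-0.85 ± 0.17, FDR = 0.0014, under 2-fold and not called). Idh3b was 4.73-fold lower than IgG RIP (-2.24 ± 0.15, FDR = 6.51e-06) and 4.60-fold lower than input (-2.20 ± 0.15, FDR = 2.41e-06). Idh3g was lower than IgG RIP (-1.38 ± 0.22, FDR = 0.000413) and than input (-1.70 ± 0.22, FDR = 9.22e-05). The Idh3g calls ended when only curated transcript rows were summed (-1.09, FDR = 0.192 over IgG RIP, where the FDR ranged from 1.69e-09 to 0.192 over 20 alternatives), which held 24.8% to 99.8% of its counts across the IgG RIP libraries. The Idh3b locus overlaps Nop56 in the annotation, and Idh3b counts came from 1 curated row.

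In the middle of the cycle, 1 of 5 genes, Suclg1, was lower than both controls, where 9.54% of all tested genes were. With 5 genes, nothing is read from this share. Ogdh and Dlst, the E1 and E2 enzymes of the 2-oxoglutarate dehydrogenase complex, had log2 ratios of opposite sign over IgG RIP and were not called, with Ogdh at -0.66 ± 0.16, FDR = 0.00611 and Dlst, the highest cycle member, at 0.50 ± 0.18, FDR = 0.0387. The Ogdh value over IgG RIP went from -2.37 to -0.55 across the alternatives, and from -0.83 to -0.55 when 1 library was left out. A single curated row held 44.0% to 71.1% of Ogdh counts in CELF2-KI RIP but at most 22.2% in IgG RIP. Dlst was at 87.8, 63.8 and 78.9 CPM in the CELF2-KI RIP libraries, 64.3, 58.7 and 39.9 CPM in the IgG RIP libraries and 81.1, 82.9 and 89.8 CPM in the input libraries, with the CELF2-KI RIP libraries overlapping both controls. Ogdh was higher in IgG RIP than in input (1.14 ± 0.16, FDR = 0.000666), 1 of the 2 enzymes with Pfkp called so, where the background was 6.79%, and neither was called when only curated or version-matched rows were summed. Succinyl-CoA ligase forms succinate with ATP or GTP. Its shared alpha subunit Suclg1 (chr6:73248505-73276907) was at 9.84, 6.78 and 9.01 CPM in the CELF2-KI RIP libraries, 19.1, 18.8 and 27.5 CPM in the IgG RIP libraries and 30.96, 31.96 and 32.7 CPM in the input libraries. The ATP-forming Sucla2 was at 25.8, 17.3 and 16.2 CPM in the CELF2-KI RIP libraries, 28.5, 25.6 and 39.9 CPM in the IgG RIP libraries and 31.3, 29.6 and 30.2 CPM in the input libraries. The GTP-forming Suclg2 was at 7.76, 7.24 and 6.43 CPM in the CELF2-KI RIP libraries, 6.88, 9.51 and 15.2 CPM in the IgG RIP libraries and 13.3, 12.99 and 12.1 CPM in the input libraries. For Suclg1 the CELF2-KI RIP libraries were below all controls (log2 ratio -1.35 ± 0.20, FDR = 0.000231 over IgG RIP and -1.90 ± 0.20, FDR = 2.61e-05 over input). Neither beta subunit was called, with Sucla2 at -0.66 ± 0.21, FDR = 0.0236 and Suclg2 at -0.56 ± 0.26, FDR = 0.0944 over IgG RIP.

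At the last steps, Fh1 and Mdh2 were lower than both controls and Mdh1 was not called. Fh1 (chr1:175601378-175625635), fumarase, which hydrates fumarate to malate, was at 14.4, 10.5 and 9.73 CPM in the CELF2-KI RIP libraries, 24.03, 28.2 and 42.9 CPM in the IgG RIP libraries and 39.9, 39.2 and 36.6 CPM in the input libraries, with the third IgG RIP library the highest of all. The CELF2-KI RIP libraries lay below all controls (log2 ratio -1.46 ± 0.23, FDR = 0.000413 over IgG RIP and -1.74 ± 0.23, FDR = 0.000113 over input). Mdh1, the cytosolic malate dehydrogenase of the malate-aspartate shuttle, was at 141, 110.4 and 120.3 CPM in the CELF2-KI RIP libraries, 87.2, 90.4 and 136 CPM in the IgG RIP libraries and 118, 119 and 122 CPM in the input libraries. Mdh2 (chr5:135778649-135790386), the mitochondrial enzyme that returns malate to oxaloacetate, was at 38.7, 28.2 and 26.5 CPM in the CELF2-KI RIP libraries, 71.8, 77.9 and 94.5 CPM in the IgG RIP libraries and 157, 142 and 161 CPM in the input libraries. Mdh1 overlapped both controls and was not called (log2 ratio 0.25 ± 0.17, FDR = 0.245 over IgG RIP and 0.051 ± 0.17, FDR = 0.814 over input), while the conditions of Mdh2 formed 3 separate steps, 2.61-fold lower than IgG RIP (-1.39 ± 0.17, FDR = 7.01e-05) and 4.93-fold lower than input (-2.30 ± 0.17, FDR = 4.05e-06). The ratio of Mdh1 to Mdh2 counts was 3.65, 3.92 and 4.54 in the CELF2-KI RIP libraries, 1.21, 1.16 and 1.43 in the IgG RIP libraries and 0.756, 0.837 and 0.754 in the input libraries.

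Between glycolysis and the citric acid cycle, the medians differed in no direction shared by both controls. The median log2 ratio over IgG RIP was -0.79 for the 17 glycolysis genes and -0.66 for the 15 cycle genes, a difference of -0.13 that turned to 0.37 with version-matched transcripts and to 0.12 without the first IgG RIP library. Over input the medians were -0.44 and -0.84, a difference of 0.40 that became -0.05 with curated transcripts only. The other alternatives kept it positive, from 0.26 without the second CELF2-KI RIP library to 0.55 without the first. Calls below both controls took 5 of 17 (29.4%) and 6 of 15 (40%), with a background of 9.54%, and the difference between the arms was not tested. Glycolysis had 2 of 17 (11.8%) higher than IgG RIP and 3 of 17 (17.6%) higher than input, near the backgrounds of 13.4% and 14.6%, and the cycle had 0 of 15 in both. The summed CPM of glycolysis over that of the cycle was 3.17, 3.81 and 3.31 in the CELF2-KI RIP libraries, 2.86, 2.83 and 2.56 with IgG and 2.64, 2.60 and 2.55 in input, so that CELF2-KI RIP was highest. Ldha, Pgam1 and Pfkp, each called higher than at least 1 control in CELF2-KI RIP, weighed on this order. Hk2, also called higher than input, was kept in the sum. Without Ldha, Pgam1 and Pfkp the ratio was 1.61, 1.56 and 1.46 in the CELF2-KI RIP libraries. It was then 1.84, 1.92 and 1.76 with IgG and 2.08, 2.02 and 2.05 in input. The genes left out were picked for high values in these same libraries, and no cycle gene was left out. A fall of the ratio in CELF2-KI RIP was therefore built in, and nothing about the 2 arms is read from it.

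Across all tested genes the log2 ratios varied with the genomic span of the gene, a property the list was not chosen on. The median log2 ratio over IgG RIP went from -0.49 for 3682 genes under 10 kb to 0.16 for 2941 genes over 80 kb, and over input from -0.47 to 0.50. Of the 11 enzymes lower than both controls, 6 lay in genes under 10 kb, 1 between 10 and 20 kb and 4 between 20 and 40 kb of span, with a median span of 7935 bases against 23066 for the other 26. Within the class under 10 kb, the 9 enzymes had a median of -1.38 over IgG RIP and -2.02 over input, below the medians of all genes in that class. Pgam1 and Pdhb were short genes on the other side, at 6795 and 7313 bases. Over the 37, span and log2 ratio had a Spearman rho of 0.26 over IgG RIP and 0.46 over input, beside 0.20 and 0.28 over all tested genes, all computed from the same libraries. The part of span in the calls was not tested.

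**Figure D4:**
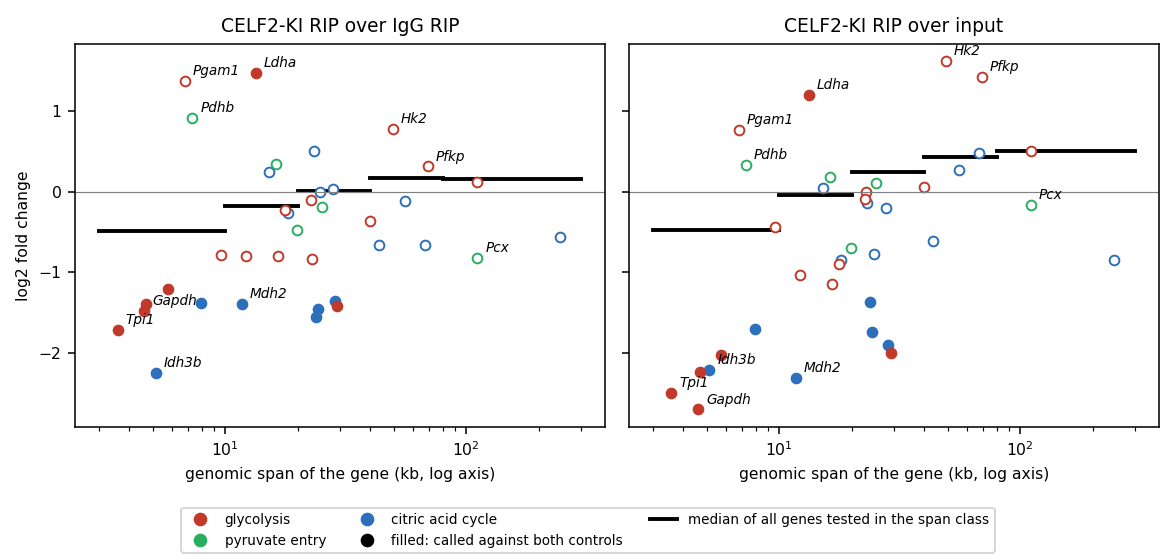
Log2 ratio of CELF2-KI RIP to IgG RIP (left) and to input (right) against the genomic span of each of the 37 genes (kb, log axis), with colours for the pathway arms, filled points for calls against both controls and black lines for the median of all tested genes in each span class. The filled points below 0 lie between 3573 and 29010 bases of span, and Ldha, Pgam1 and Pdhb stand above the line of their class.

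Some of these genes have pseudogenes named after them, and whether reads were shared with these was not tested, since sequences were not compared. The gene table names 17 pseudogenes or related copies after 6 of the 37 (Aldoa, Gapdh, Pgk1, Pgam1, Ldha and Ldhb), and only 2 of these copies, both of Aldoa, had rows of their own among the counts, and the others were not counted under names of their own. Eno1b, a gene named as a relative of Eno1, took 0.766% to 1.79% of the summed Eno1 and Eno1b counts. Of the 37 genes, 17 were counted from a single transcript row, including Gpi1, Tpi1, Pgam1, Idh3b, Suclg1, Fh1 and Mdh2, and 10 overlap another gene that had a row. The libraries were directional, but the strand setting of the counting was not given in the sources used here.

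Genes around the 2 pathways were counted from further lists. Of 7 transporters of glucose, lactate and pyruvate, 3 were higher than IgG RIP (Slc2a3, the neuronal glucose transporter, and the monocarboxylate transporters Slc16a1 and Slc16a7, at 1.35, 1.36 and 1.33) but none was higher than both controls, and 2 were lower than both, Mpc1 (-1.02 over IgG RIP and -2.32 over input) and Mpc2 (-2.13 over IgG RIP and -3.25 over input), the subunits of the mitochondrial pyruvate carrier. Among other enzymes of or linked to the cycle, Sdhb (-2.52 over IgG RIP and -3.17 over input), the iron-sulfur subunit of succinate dehydrogenase, was lower than both, and none of the 15 listed was higher than both. Of 8 pyruvate dehydrogenase regulators, 1 was higher than both, the phosphatase Pdp2 (1.39 over IgG RIP and 1.52 over input), and none was lower. Of 8 pentose phosphate pathway enzymes, 2 were lower than both, Pgls (-1.97 over IgG RIP and -3.07 over input) and Pgd (-1.03 over IgG RIP and -1.61 over input), and none was higher. Among 19 tested of 21 other isozymes and regulators of glycolysis, 1 was higher than both, Pgam5 (1.97 over IgG RIP and 1.30 over input), a mitochondrial phosphatase named for its likeness to the mutases, and none was lower. Of the gluconeogenesis list 2 of 6 were tested, and Pck2 (-1.79 over IgG RIP and -1.44 over input) was lower than both. The lists are short, and beside the backgrounds of 7.58% and 9.54% nothing is read from their shares.

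Markers of cell types also differed between the conditions in the same libraries, and their counts stand beside backgrounds of 7.58% of all tested genes higher and 9.54% lower than both controls. Of 7 excitatory neuron markers, 3 were higher than both controls (Tbr1, Bcl11b and Slc17a7), and the list summed to 1671 to 2279 CPM in CELF2-KI RIP, 894 to 1041 CPM in IgG RIP and 971 to 1135 CPM in input. Of 5 tested erythroid markers, 4 were lower than both (Hba-a1, Hba-a2, Hbb-bs and Hbb-bt), and the 5 summed to 92.7 to 94.96 CPM in CELF2-KI RIP against 366 to 584 CPM in IgG RIP and 877 to 1135 CPM in input. Of 8 radial glia and astrocyte markers, 2 were lower than both, Vim and Fabp7, with sums of 624 to 1062 CPM, 752 to 816 CPM and 1177 to 1428 CPM in the same order. Of 6 interneuron markers, Lhx6 was higher than both, and of 5 pan-neuronal markers, Dcx was. Tmem119 of 5 tested microglial and Cdh5 of 6 endothelial markers were lower than both, and no marker of 5 for oligodendrocyte precursors was called against both. These sums differed between the conditions that the enzymes were compared in, and their part in the results was not tested.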

How the data were processed

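The 9 libraries (3 of CELF2-KI RIP, 3 of IgG RIP, 3 of input) came from cytoplasmic RNA of P0 cortex of heterozygous Celf2 KI mice. RNA was depleted of rRNA and made into directional libraries. The authors pseudoaligned trimmed reads with kallisto 0.51.1 and deposited estimated counts, 1 row per transcript, not normalized for depth or length. Their processing notes also name DESeq2 1.46.0, edgeR 4.4.0 and mm10. The text of the study names Ensembl as the source of transcripts, while the rows carry RefSeq accessions.

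Of 107384 rows, 86722 were matched to 32903 genes by accession without version, using a RefSeq gene table of GRCm38.p6, which also gave coordinates and spans. The rows of each gene were added up and the sums rounded to integers. Protein-coding genes reaching 0.5 CPM in 3 or more libraries were fitted in edgeR 4.0.16 (R 4.3.3) with TMM factors, 1 mean per condition over all 9 libraries and quasi-likelihood tests, with Benjamini-Hochberg adjustment over all 15267 genes and calls at an FDR of 0.01 and 2-fold. The fit was tested on simulated counts. The enzymes, gene lists, markers and tests were chosen with earlier results of these data known, so no test is made over a list, and a list's counts are read beside the share of all genes called. Values in every library are given for enzymes called against both controls, for isozyme groups, for the highest and lowest enzyme of each arm over IgG RIP and for Gapdh, Pkm and Cs. Libraries with the same number shared deviations from their condition means between CELF2-KI RIP and input (correlations over 13558 genes 0.136, 0.106 and 0.160) but not between the 2 precipitates (-0.058, 0.028 and 0.005). Replicates were labelled biological, and no pair of libraries was a duplicate (chi-square per gene 12.2 to 46.2). Alternatives were other scalings (total counts, upper quartile, DESeq2 1.42.0 size factors, TMM with noncoding genes), no filter, the DESeq2 Wald test, edgeR's glmTreat, no fold threshold, only the 2 conditions compared, a replicate block, only version-matched or curated transcripts, and each library left out. Protein and transcript sequences were not used here. Not every gene of the further lists is reported here.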

Additional observations from a re-analysis of the deposited data

How the results depend on the processing

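The 11 enzymes lower than both controls numbered 11 to 13 without any 1 library, and Gpi1, Gapdh and Idh3b kept both calls under all 20 alternatives. Enzymes lower than both numbered 14 with total counts, 13 with upper-quartile factors, 9 with version-matched and 10 with curated transcripts. Some counts changed. With total-count scaling 18 enzymes were lower than IgG RIP, 1 was higher than input, 0 were higher than both controls and 2 were lower in IgG RIP than in input. Tested against the 2-fold threshold itself (glmTreat), 1 was higher and 5 were lower than IgG RIP, 1 was higher than input, 4 were lower and 0 higher than both controls, and IgG RIP and input differed in 0 enzymes in either direction. By FDR alone 5 were higher than input, 2 were higher than both controls and 6 were lower in IgG RIP than in input. The count higher than both controls was also 0 with upper-quartile factors, with TMM over coding and noncoding genes and in fits of only the 2 conditions compared. With TMM over coding and noncoding genes 0 were higher and 2 lower in IgG RIP than in input, and with version-matched or curated transcripts 0 were higher there. Leaving out 1 library gave 1 to 2 enzymes lower in IgG RIP than in input (2 without the third IgG RIP library). The difference of medians, glycolysis minus cycle, over IgG RIP was 0.37 with version-matched and -0.20 with curated transcripts. Without any 1 library it was -0.15 to 0.12. Over input it was -0.050 with curated transcripts and 0.26 to 0.55 under the other alternatives. The causes were not tested.

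Scaling moved the median of all genes over input from 0.19 to -0.27 with total counts and -0.20 with TMM over coding and noncoding genes, and over IgG RIP from -0.06 to -0.42 and -0.27, and the log2 ratios that changed sign were mostly small ones. With total-count scaling, these were Hk1 -0.25, Pfkp -0.062, Pdha1 -0.024, Cs -0.35, Idh1 -0.32 and Mdh1 -0.11 over IgG RIP and Pfkm -0.39, Pdha1 -0.27, Pdhb -0.12, Dlat -0.35, Aco1 -0.20 and Mdh1 -0.40 over input. With DESeq2 size factors in edgeR, these were Cs -0.064 and Idh1 -0.032 over IgG RIP and Pfkm -0.074, Dlat -0.034 and Mdh1 -0.086 over input. With upper-quartile factors, these were Hk1 -0.15, Cs -0.26, Idh1 -0.22 and Mdh1 -0.013 over IgG RIP and Pfkm -0.17, Pdha1 -0.051, Dlat -0.13 and Mdh1 -0.19 over input. With TMM over coding and noncoding genes, these were Hk1 -0.11, Cs -0.20 and Idh1 -0.18 over IgG RIP and Pfkm -0.31, Pdha1 -0.20, Pdhb -0.051, Dlat -0.28, Aco1 -0.12 and Mdh1 -0.33 over input. With no filter on low counts, these were Cs -0.084 and Idh1 -0.051 over IgG RIP and Pfkm -0.053, Dlat -0.013 and Mdh1 -0.065 over input. With the DESeq2 Wald test, these were Cs -0.063 and Idh1 -0.032 over IgG RIP and Pfkm -0.074, Dlat -0.034 and Mdh1 -0.086 over input. With only the 2 conditions compared, these were Cs -0.045 and Idh1 -0.018 over IgG RIP and Pfkm -0.17, Pdha1 -0.043, Dlat -0.13 and Mdh1 -0.18 over input. With version-matched transcripts, these were Hk1 -0.073, Cs -0.13 and Idh1 -0.090 over IgG RIP and Pfkm -0.0062, Pkm 0.996, Ogdh -0.71 and Mdh1 -0.018 over input. With curated transcripts, these were Hk1 -0.22, Cs -0.15 and Idh1 -0.11 over IgG RIP. Leaving out 1 library gave ranges across 0 over IgG RIP for Cs -0.20 to 0.21, Idh1 -0.073 to 0.28 and Pkm -0.42 to 0.074, and over input for Pfkm -0.072 to 0.19, Mdh1 -0.063 to 0.13, Pfkl -0.16 to 0.15, Pkm -0.40 to 0.090, Pcx -0.44 to 0.050 and Dlat -0.0069 to 0.15. Tpi1 and Pfkl had no version-matched transcript and no value there. Pkm and Ogdh over input turned with the choice of transcripts, and no log2 ratio that was called changed sign.

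With the replicate number as a block, the counts of enzymes were the same as without it (11 lower and 1 higher than both controls), and only Cs over IgG RIP turned, to -0.016. With 3 libraries per condition, differences within the 95% intervals were not detectable, and the lowest protein-coding totals were in IgG RIP.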
